A study of Homo sapiens with 11 samples.

Results

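The kinetochore is the protein structure that builds on the centromere of each chromosome and holds it to the microtubules of the mitotic spindle. A set of 36 human genes of this structure was followed in SK-MEL-103, an established melanoma cell line, under 2 drugs with which the study made cells senescent, meaning that they stay alive but stop dividing for good. The set was a list by name, drawn up with earlier results of these data known, and its rule used no measured value. It held 9 checkpoint genes and polo kinases, 14 genes of the outer kinetochore and 13 of the inner centromere, out of 61566 genes in the tables. All 36 were among the 17039 genes that passed the filter on low counts.

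RNA was sequenced after 6 days in the solvent DMSO (n = 4), 0.25 µM etoposide (n = 4) or 0.5 µM tozasertib (n = 3, labelled replicates 1, 2 and 4), with medium and drugs renewed on day 3. Etoposide traps topoisomerase II on DNA and so breaks it, and tozasertib inhibits the Aurora kinases, which act on kinetochores and spindles. All groups were 1 cell line and differed in what was added, so the values hold for this line. It is not stated whether replicates came from separate cultures, and p-values therefore measure only how far these samples spread, possibly for technical reasons.

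At the inner centromere, the histone variant CENP-A, loaded by its chaperone HJURP, marks the chromatin on which CENP-C and the CCAN subunits (CENP-H to CENP-W) assemble. The outer kinetochore consists of KNL1, the MIS12 complex (MIS12, DSN1, NSL1, PMF1) and the NDC80 complex (NDC80, NUF2, SPC24, SPC25), which grips microtubules. Where a kinetochore is not attached, the kinase TTK and the proteins BUB1, BUB1B, BUB3, MAD1L1 and MAD2L1 hold CDC20 back from the anaphase-promoting complex. The transcripts of many of these genes are known to be made late in the cell cycle and to be scarce in cells that have stopped dividing.

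Many of their promoters carry a CHR, a short element known from genes transcribed in G2 and mitosis, often together with CCAAT boxes, which the factor NF-Y binds. RefSeq promoter windows of GRCh38.p14, from 250 bases before to 50 after the start of transcription, were at hand for 30 of the 36 members. The stretches printed here are examples with a CHR, from members of each subgroup, and 3 contrasts without one. Capitals mark the letters TTTGAA or TTCGAA (CHR) and CCAAT, on either strand, so that TTCAAA and ATTGG are the same letters on the other strand.
PLK1, chr16:23678786-23678885, plus strand: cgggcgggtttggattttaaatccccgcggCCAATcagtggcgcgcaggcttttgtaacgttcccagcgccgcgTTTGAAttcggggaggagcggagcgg
CDC20, chr1:43358842-43358941, plus strand: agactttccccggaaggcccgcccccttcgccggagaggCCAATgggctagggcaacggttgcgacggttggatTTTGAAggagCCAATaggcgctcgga
BUB1B, chr15:40160972-40161071, plus strand: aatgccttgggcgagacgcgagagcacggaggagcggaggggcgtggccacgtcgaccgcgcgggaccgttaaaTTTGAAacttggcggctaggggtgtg
ZWINT, chr10:56361265-56361364, minus strand: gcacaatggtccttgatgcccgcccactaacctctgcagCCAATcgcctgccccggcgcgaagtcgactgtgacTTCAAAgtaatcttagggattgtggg
SPC25, chr2:168890408-168890507, minus strand: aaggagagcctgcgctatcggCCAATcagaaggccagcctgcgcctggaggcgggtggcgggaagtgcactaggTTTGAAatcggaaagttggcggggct
CENPA, chr2:26785964-26786063, plus strand: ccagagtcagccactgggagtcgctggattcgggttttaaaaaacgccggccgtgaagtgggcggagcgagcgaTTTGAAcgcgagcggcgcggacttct
HJURP, chr2:233854621-233854720, minus strand: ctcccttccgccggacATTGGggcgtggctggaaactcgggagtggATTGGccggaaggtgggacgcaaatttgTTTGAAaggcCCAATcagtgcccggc
SGO1, chr3:20186184-20186283, minus strand: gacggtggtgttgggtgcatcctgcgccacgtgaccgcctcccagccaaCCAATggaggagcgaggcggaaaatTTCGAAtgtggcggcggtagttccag
SPC24, chr19:11155783-11155882, minus strand: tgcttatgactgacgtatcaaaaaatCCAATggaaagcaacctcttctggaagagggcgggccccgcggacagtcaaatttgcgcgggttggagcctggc
MAD1L1, chr7:2232946-2233045, minus strand: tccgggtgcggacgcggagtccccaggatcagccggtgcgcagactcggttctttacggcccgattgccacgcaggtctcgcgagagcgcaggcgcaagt
CENPT, chr16:67847694-67847793, minus strand: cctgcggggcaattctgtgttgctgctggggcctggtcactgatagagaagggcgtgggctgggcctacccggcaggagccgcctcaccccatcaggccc
CHR letters stood in 18 of the 30 windows (60.0%), against 16.4% of the 35116 windows in the table. From 100 bases before the start onwards they were present in 53.3% of the members' windows and in 7.37% of all. CCAAT was found in 66.7% of the members' windows against 34.6% of all, and both elements in 46.7% against 6.38%. The E2F letters TTTCCCGC, TTTCGCGC, TTTGCCGC or TTTGGCGC occurred in 3 windows (10%), those of MIS12, CENPA and CENPU, against 3.31% of all. Every search covered both strands and allowed overlaps between elements. These are matches of letters, given as a description. The printed stretches of PLK1, SPC25, CENPA, MAD1L1 and CENPT lie inside the annotated gene and not before its outermost start.

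**Figure D1:**
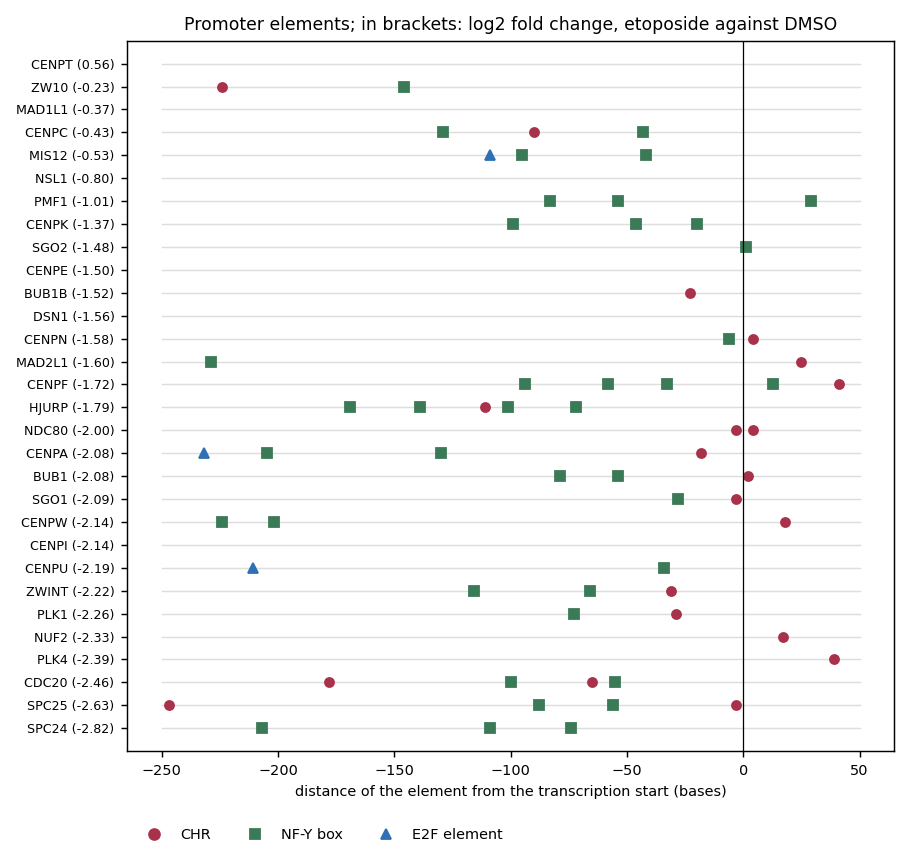
Position of CHR, NF-Y (CCAAT) and E2F letters in the promoter windows of 30 members, in bases from the start of transcription, ordered by the log2 fold change of the gene in etoposide against DMSO. CHR letters sit close to the start in PLK1, ZWINT, SPC25 and SGO1, and are missing from the windows of SPC24, CENPI and CENPT. The windows of PLK1, NUF2, SPC25, CENPA, CENPN, MAD1L1, SGO2 and CENPI lie inside the annotated gene.

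Samples held between 27882689 and 56534763 reads. SOX10, a factor of the melanocyte and neural crest lineage, stood between 482 and 541 CPM (reads of the gene relative to sample depth, with TMM scaling) in DMSO, while the pigment genes MLANA and TYRP1 were at 0 there and TYR reached 0.0622 CPM. Of 8 melanocyte markers 4 reached 1 CPM in some sample, with a summed level of 490 to 551 CPM in DMSO, 329 to 348 in etoposide and 392 to 399 in tozasertib. Most of that sum was SOX10, with means of 514, 323 and 379 CPM in the same order. The other 3 were higher under a drug: MITF by log2 fold changes of 0.30 and 0.27 (adjusted p = 0.0185 and 0.0393), S100B by 0.90 and 1.49 (adjusted p = 0.00653 and 0.000225), and PMEL by 3.57 in tozasertib (adjusted p = 9.56e-07), with 0.33 in etoposide (adjusted p = 0.475). Of 6 fibroblast markers, COL1A1 and LUM reached 1 CPM and carried a sum of 24.7 to 29.8 CPM in DMSO, 137 to 154 in etoposide and 118 to 123 in tozasertib, while COL3A1 and DCN stayed near 0. Of 5 keratinocyte markers, KRT10 and KRT14 reached 1 CPM, with sums of 48.1 to 66.9, 52.1 to 54.5 and 44.2 to 53.4 CPM in the same order. Of 5 immune markers CD68 alone reached 1 CPM, with sums of 55.7 to 68.1, 34.7 to 42.2 and 43.1 to 48.1 CPM, and CD3E was at 0 in DMSO and etoposide. MKI67, a marker of dividing cells, ran from 177 to 244 CPM in DMSO, from 35.4 to 56.9 in etoposide and from 20 to 34.5 in tozasertib. The part of the markers in the members' values was not tested, and in bulk RNA fewer cycling cells and less RNA per cell cannot be told apart.

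Within the groups, some samples stood apart over the members. Etoposide replicate 4 was the lowest of its group for 30 of 36 members and tozasertib replicate 4 for 30 of 36, and MKI67 was lowest in the same samples. DMSO replicate 1 was the highest of its group for 17 members and the lowest for 13, and DMSO replicate 4 was the lowest for 17. The deviations of DMSO replicate 1 ran against effective transcript length (Spearman's rho -0.695 over 36 genes, which share one library and are not independent). Those of DMSO replicates 2, 3 and 4 ran with it (0.406, 0.513 and 0.606). Deviations were taken from the group mean, so these 4 values depend on each other. Values without DMSO replicates 1 and 4, and without both drug replicates 4, are given beside the counts they touch.

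The first question was how far the kinetochore genes moved under each drug. In etoposide against DMSO, 35 of 36 members were called lower by edgeR's quasi-likelihood test (adjusted p under 0.05 over all genes) and 1, CENPT, was called higher. Over all genes tested, 30.7% were called lower and 27.7% higher. The median log2 fold change of the members was -1.81, beside -0.01 over all genes, and single members ran from -2.82 to 0.56. A fall of more than 1 on the log2 scale was seen for 29 members and of more than 2 for 15. Over all 17039 genes tested these counts were 1371 and 312. No etoposide sample reached the lowest DMSO sample for 34 members, a pattern met by 27% of all genes.

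In tozasertib against DMSO, 35 members were again called lower and CENPT higher, where 29.4% of all genes were called lower and 29.9% higher. The median was -2.52, beside 0.02 over all genes, and the members ran from -3.69 to 0.32. The fall passed 1 on the log2 scale for 28 members and 2 for 26, beside 1326 and 371 of all 17039 genes. For 35 members no tozasertib sample reached the lowest DMSO sample, against 29.4% of all genes. Both comparisons used the same 4 DMSO samples. The counts of 35 lower were the same without DMSO replicates 1 and 4, and without both drug replicates 4, in settings chosen after seeing the data, while CENPT was no longer called in tozasertib (adjusted p = 0.121 and 0.0752). The summed level of the 36 members lay between 1845.9 and 2052.7 CPM in DMSO, 651 and 788 in etoposide and 519 and 586 in tozasertib.

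The median log2 fold changes of the 3 subgroups lay close together. They were -1.82, -1.68 and -1.87 in etoposide for checkpoint genes and polo kinases, outer kinetochore and inner centromere, and -2.62, -2.35 and -2.56 in tozasertib. In each subgroup, most members fell several-fold while a few changed by less than 2-fold.

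**Figure D2:**
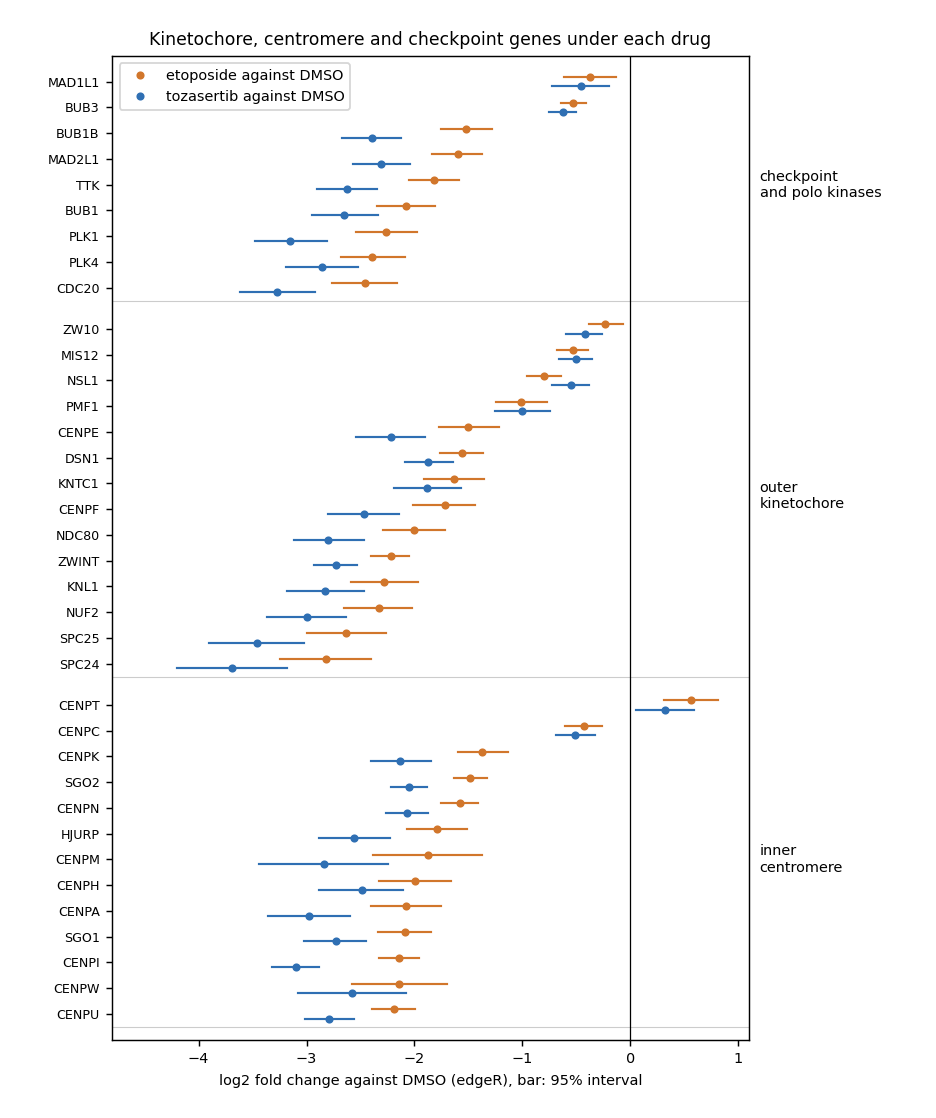
Log2 fold change of each of the 36 members against DMSO in etoposide (orange) and tozasertib (blue), from edgeR, with 95% intervals as bars and members ordered within their subgroup. All but CENPT lie below 0, and BUB3, MAD1L1, MIS12, NSL1, ZW10 and CENPC lie between 0 and -1 under both drugs.

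Polo-like kinase 1, PLK1, drives entry into mitosis and kinetochore attachment. It stood at 126, 123, 112 and 103 CPM in DMSO, at 27.7, 28.4, 22.3 and 18.4 CPM in etoposide and at 14.8, 13.2 and 11.2 CPM in tozasertib. The 3 groups did not overlap. PLK1 was 4.79-fold lower in etoposide (log2 fold change -2.26, SE 0.13, adjusted p = 9.3e-09) and 8.85-fold lower in tozasertib (-3.15, SE 0.15, adjusted p = 2.05e-09). PLK4, the kinase that starts centriole duplication, gave 29.5, 36.7, 38.1 and 36.2 CPM in DMSO, 7.39, 6.98, 6.35 and 6.06 CPM in etoposide and 5.53, 5.52 and 3.47 CPM in tozasertib. It too was lower in every treated sample, by 2.39 and 2.86 on the log2 scale (adjusted p = 7.58e-09 and 5.09e-09).

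CDC20 is the activator of the anaphase-promoting complex that the checkpoint restrains, and it had the lowest fold changes of its subgroup. Its level was 206, 162, 157 and 140 CPM in DMSO, 33.5, 32.4, 30.8 and 23.7 CPM in etoposide and 19.2, 18.2 and 14.2 CPM in tozasertib. The DMSO samples differed among themselves, with replicate 1 high, but each lay far above the highest etoposide sample. The fall was 5.51-fold in etoposide (log2 fold change -2.46, SE 0.14, adjusted p = 7.3e-09) and 9.64-fold in tozasertib (-3.27, SE 0.16, adjusted p = 2.41e-09). The processed pseudogene CDC20P1, whose reads are hard to split from those of CDC20, went from 4.65 to 0.957 and 0.487 CPM.

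TTK, the kinase that opens checkpoint signalling, was measured at 44.6, 47.8, 48.5 and 48.0 CPM in DMSO, at 14.2, 14.5, 12.7 and 12 CPM in etoposide and at 8.96, 8.08 and 5.83 CPM in tozasertib. BUB1, a kinase that recruits the other checkpoint proteins to KNL1, gave 68.9, 75.8, 74 and 70.1 CPM, then 19.3, 19.6, 16.1 and 13.1 CPM, then 12.4, 12.9 and 9.38 CPM. BUB1B, which encodes the checkpoint protein BUBR1, gave 84.6, 101, 96.2 and 95.2 CPM, then 35.8, 38.6, 30.3 and 27.0 CPM, then 19.4, 19.1 and 15.4 CPM. For these genes the order DMSO, etoposide, tozasertib held without overlap. The log2 fold changes in etoposide and tozasertib were -1.82 and -2.62 for TTK, -2.08 and -2.65 for BUB1 and -1.52 and -2.39 for BUB1B, with adjusted p of at most 7.58e-08.

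MAD2L1 encodes MAD2, which binds and blocks CDC20. It was found at 81.9, 67.0, 65.5 and 60.5 CPM in DMSO, at 24.6, 24.9, 21.7 and 19.1 CPM in etoposide and at 14.4, 14.9 and 12.3 CPM in tozasertib. Its partner MAD1L1, which places MAD2 at the kinetochore, gave 38.5, 30.0, 29.1 and 23.9 CPM, then 23.6, 24.3, 23.4 and 22.8 CPM, then 20.8, 22.7 and 22.8 CPM. MAD2L1 fell well clear of DMSO (-1.60 and -2.31), whereas DMSO replicate 4 lay within the etoposide range for MAD1L1. MAD1L1 had the smallest change of its subgroup, at -0.37 in etoposide (SE 0.11, adjusted p = 0.012) and -0.46 in tozasertib (SE 0.12, adjusted p = 0.00519).

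BUB3, the adaptor that BUB1 and BUB1B share, was also nearer to its DMSO level than they were. It stood at 245, 230, 226 and 213 CPM in DMSO, at 162, 163, 155 and 154 CPM in etoposide and at 149, 151 and 145 CPM in tozasertib. Groups were tight and apart, and the fall was 1.44-fold in etoposide (log2 fold change -0.53, SE 0.05, adjusted p = 1.77e-06) and 1.54-fold in tozasertib (-0.62, SE 0.06, adjusted p = 9.27e-07).

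**Figure D3:**
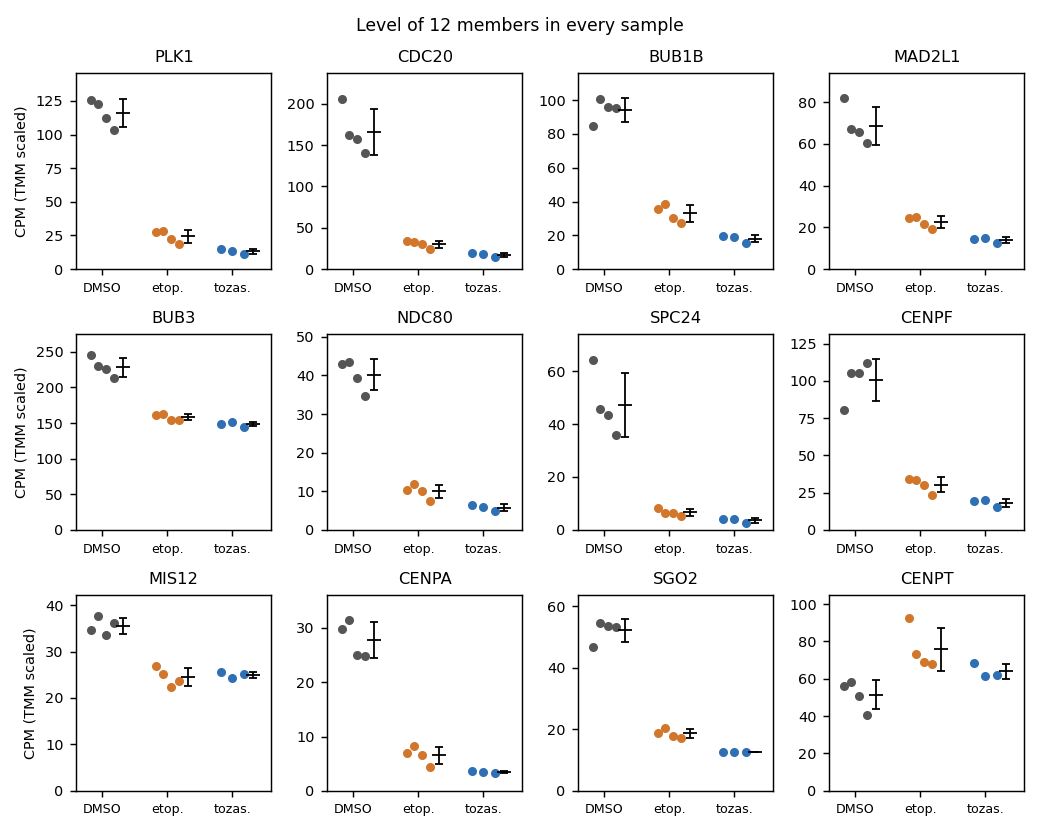
Level of 12 members in every sample, in CPM scaled by TMM, with points for samples and a cross bar for mean ± SD (n = 4 DMSO, 4 etoposide, 3 tozasertib). The points of PLK1, CDC20, NDC80, SPC24 and CENPA fall several-fold from DMSO to both drugs, those of BUB3 and MIS12 by less than 2-fold, and those of CENPT rise.

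Among the outer kinetochore genes, the largest falls were those of SPC24, SPC25 and NUF2 of the NDC80 complex, while NDC80 itself fell less than KNL1. SPC24 had the lowest log2 fold change of all 36 members under both drugs. NDC80, the subunit that gives the complex its name and binds microtubules, stood at 42.9, 43.5, 39.3 and 34.8 CPM in DMSO, at 10.3, 11.9, 10.1 and 7.6 CPM in etoposide and at 6.57, 5.87 and 4.77 CPM in tozasertib. SPC24, on the end of the complex that faces the chromosome, gave 64.2, 45.7, 43.4 and 35.8 CPM, then 8.44, 6.50, 6.33 and 5.23 CPM, then 4.08, 4.30 and 2.58 CPM. DMSO replicate 1 was high for SPC24, and no treated sample came near any DMSO sample. SPC24 was 7.08-fold lower in etoposide (log2 fold change -2.82, SE 0.20, adjusted p = 5.6e-08) and 12.9-fold lower in tozasertib (-3.69, SE 0.24, adjusted p = 2.32e-08). NDC80 changed by -2.0 and -2.80, NUF2 by -2.33 and -3.00 and SPC25 by -2.63 and -3.46, in the same order.

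KNL1, the scaffold to which BUB1 and BUB3 bind, was at 38.5, 53.8, 53.4 and 60.5 CPM in DMSO, at 10.6, 12.2, 10.4 and 9.17 CPM in etoposide and at 7.17, 8.70 and 6.02 CPM in tozasertib. It fell 4.86-fold and 7.10-fold, and its low DMSO value was in replicate 1. Its protein-coding transcripts held 35.9% of its reads in DMSO, 52.9% in etoposide and 58.3% in tozasertib. The size of the change depended on how transcripts were counted: against log2 fold changes of -2.28 and -2.83, the values were -1.72 and -2.08 over protein-coding transcripts and -2.98 and -3.13 with length-scaled counts, all still called. ZWINT, its partner, changed by -2.22 and -2.73.

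The MIS12 complex, which joins KNL1 and NDC80 to the centromere, was uneven. MIS12 itself gave 34.7, 37.6, 33.5 and 36.1 CPM in DMSO, 26.9, 25.1, 22.4 and 23.7 CPM in etoposide and 25.5, 24.3 and 25.2 CPM in tozasertib. PMF1 gave 37, 26.6, 28.5 and 24.4 CPM, then 14.8, 14.9, 14.5 and 13.7 CPM, then 15.0, 14.4 and 14.3 CPM. The treated groups overlapped with each other for both genes and lay below DMSO. MIS12 fell 1.45-fold and 1.42-fold (adjusted p = 1.55e-05 and 5.48e-05) and PMF1 2.01-fold and 2.00-fold (3.38e-06 and 8.87e-06). NSL1 changed by -0.80 and -0.55 and DSN1 by -1.56 and -1.87, so that DSN1 fell furthest of the 4. PMF1 shares sequence with the readthrough gene PMF1-BGLAP, at 3.38, 2.26 and 2.23 CPM.

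ZW10 and KNTC1 belong to the RZZ complex, which brings dynein to kinetochores, and they differed widely. ZW10 had the smallest fall of the outer kinetochore genes, with 29.1, 30.5, 33.0 and 30.2 CPM in DMSO, 24.0, 27.6, 26.5 and 27.0 CPM in etoposide and 22.5, 25.0 and 21.4 CPM in tozasertib. DMSO stayed above both drugs by a narrow margin, and the changes were -0.23 (SE 0.07, adjusted p = 0.0138) and -0.42 (SE 0.08, adjusted p = 3.78e-04). The etoposide call was lost when counts were scaled by library size alone (adjusted p = 0.0547) or by length (adjusted p = 0.102). KNTC1 changed by -1.63 and -1.88.

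CENPE, the kinesin that carries chromosomes to the spindle equator, gave 28.1, 36.4, 38.5 and 40.1 CPM in DMSO, 13.0, 14.4, 12.7 and 10.7 CPM in etoposide and 8.65, 8.01 and 6.29 CPM in tozasertib. CENPF, a large protein of the outer kinetochore, gave 80.2, 105, 105 and 112 CPM, then 34.3, 33.8, 30.0 and 23.7 CPM, then 19.3, 19.9 and 15.3 CPM. Both have long transcripts and were lowest in DMSO replicate 1, and both separated the 3 groups. The log2 fold changes were -1.50 and -2.22 for CENPE and -1.72 and -2.47 for CENPF. For CENPF in tozasertib the value was -3.15 with length-scaled counts and -2.15 over protein-coding transcripts, which held 79.4% of its reads in DMSO, 90.6% in etoposide and 96% in tozasertib.

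At the inner centromere, CENPA had 29.9, 31.4, 25.0 and 24.8 CPM in DMSO, 7, 8.18, 6.61 and 4.39 CPM in etoposide and 3.69, 3.53 and 3.31 CPM in tozasertib. HJURP, its chaperone, gave 90.7, 98.1, 93.7 and 84.2 CPM, then 31.0, 30.1, 24.7 and 20 CPM, then 17.2, 16.8 and 12.6 CPM. Both fell without overlap, CENPA 4.22-fold and 7.88-fold (adjusted p = 7.14e-08 and 1.16e-08) and HJURP 3.46-fold and 5.88-fold (8.14e-08 and 1.14e-08).

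CENPC, the link from CENP-A chromatin to the MIS12 complex, was among the smallest changes. It gave 12.5, 12.6, 13.0 and 14.3 CPM in DMSO, 9.79, 10.2, 9.08 and 9.76 CPM in etoposide and 9.17, 9.61 and 8.86 CPM in tozasertib. It was 1.35-fold and 1.42-fold lower (adjusted p = 3.10e-04 and 1.63e-04), with DMSO clear of both drugs. On average 40.0% ± 6.62 (SD, n = 4) of its DMSO reads were assigned to transcripts annotated as protein coding. When only such transcripts were counted, its changes were -0.07 (adjusted p = 0.776) and -0.04 (adjusted p = 0.872).

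CENPT, a CCAN subunit that reaches out to the NDC80 complex, was the 1 member that rose. Its level was 56.1, 58.1, 50.8 and 40.8 CPM in DMSO, 92.8, 73.5, 69.0 and 67.8 CPM in etoposide and 68.7, 61.5 and 62.1 CPM in tozasertib. All treated samples lay above all DMSO samples, by little for tozasertib. CENPT was 1.47-fold higher in etoposide (log2 fold change 0.56, SE 0.12, adjusted p = 0.0011) and 1.25-fold higher in tozasertib (0.32, SE 0.13, adjusted p = 0.043).

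The tozasertib call of CENPT was lost without any 1 of DMSO replicates 3 and 4, etoposide replicate 2 and the 3 tozasertib replicates, with adjusted p from 0.0565 to 0.153. In DMSO 20.3% ± 1.88 (SD, n = 4) of its reads were on coding transcripts, against 22.3% ± 5.55 in etoposide and 17.4% ± 3.02 in tozasertib. Its leading transcript is annotated as a retained intron and held 43.2% ± 2.64, 32.7% ± 4.94 and 34.1% ± 3.39 of the gene's TPM (a level per length). Counted over coding transcripts alone, CENPT changed by 0.69 in etoposide (adjusted p = 0.0025) and by 0.15 in tozasertib (adjusted p = 0.474). It lies on chromosome 16, at 67828157 to 67847811 on the minus strand, and overlaps NUTF2, THAP11 and TSNAXIP1 on the other strand, of which TSNAXIP1 went from 0.679 to 1.91 and 1.80 CPM, NUTF2 from 219 to 204 and 180 and THAP11 from 73.2 to 54.5 and 52.0. Whether the counting used strand is not given in the sources used here, and their part in the CENPT values was not tested.

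The other CCAN members fell together. In etoposide CENPU (-2.19), CENPI (-2.14), CENPW (-2.14), CENPH (-1.99), CENPM (-1.87), CENPN (-1.58) and CENPK (-1.37) were all called lower, and in tozasertib their changes ran from -2.07 for CENPN to -3.10 for CENPI. CENPU was the lowest of the subgroup in etoposide, with 64.8, 58.8, 56.2 and 56.6 CPM in DMSO, 13.5, 14.4, 12.7 and 11.2 CPM in etoposide and 9.13, 9.05 and 7.43 CPM in tozasertib. CENPI was the lowest in tozasertib, with 23.9, 22.2, 23.3 and 22.5 CPM, then 5.17, 5.33, 5.31 and 4.95 CPM, then 3.02, 2.62 and 2.30 CPM. Both genes had tight groups without overlap.

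SGO1 and SGO2 encode shugoshins, which protect the cohesion of sister centromeres. SGO1 stood at 23.7, 24.7, 26.3 and 24.3 CPM in DMSO, at 6.25, 6.47, 5.57 and 4.88 CPM in etoposide and at 4.42, 3.53 and 3.09 CPM in tozasertib. SGO2 stood at 46.8, 54.7, 53.6 and 53.4 CPM, then at 18.9, 20.5, 17.9 and 17.3 CPM, then at 12.7, 12.5 and 12.5 CPM. Each group lay apart, and the changes were -2.09 and -2.73 for SGO1 and -1.48 and -2.05 for SGO2.

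Partners of one complex could be compared per length, in TPM. Where they did not fall alike, their ratios moved. The ratio of MAD2L1 to MAD1L1 was 4.68 ± 0.13 (SD, n = 4) in DMSO, 2.19 ± 0.27 (n = 4) in etoposide and 1.24 ± 0.14 (n = 3) in tozasertib. Its range was 4.50 to 4.81, 1.79 to 2.41 and 1.12 to 1.39, so the 3 groups did not overlap. In every group most of the MAD2L1 TPM (84.1% in DMSO) was on 1 transcript annotated for nonsense-mediated decay.

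BUB1 to BUB3 went from 0.161 ± 0.020 to 0.0527 ± 0.0077 and 0.0362 ± 0.0052, and BUB1B to BUB3 from 0.240 ± 0.023 to 0.129 ± 0.017 and 0.0728 ± 0.014. DSN1 to MIS12 went from 0.864 ± 0.115 to 0.405 ± 0.099 and 0.306 ± 0.058. In the NDC80 complex, SPC25 to NDC80 changed from 0.949 ± 0.054 to 0.577 ± 0.065 and 0.510 ± 0.071, and SPC24 to NDC80 from 1.05 ± 0.207 to 0.583 ± 0.142 and 0.597 ± 0.125. Both SPC subunits thus went from near parity with NDC80 to well below it, with DMSO clear of the drugs. NUF2 to NDC80 overlapped between groups, from 1.36 to 1.53 in DMSO and 0.962 to 1.49 in etoposide. CENPK to CENPI moved the other way, from 3.51 ± 0.38 to 6.4 ± 1.68 and 7.68 ± 1.07. DMSO and etoposide also overlapped for NSL1 (0.377 to 0.516 and 0.265 to 0.427) and PMF1 (1.08 to 1.82 and 0.743 to 1.11) to MIS12. The same held for CENPM (1.11 to 2.1 and 1.11 to 2.39) and CENPH (2.84 to 3.81 and 2.41 to 4.43) to CENPI. In tozasertib PMF1 to MIS12 lay below DMSO (0.765 to 0.862) and CENPH to CENPI above it (4.45 to 6.04). NSL1 to MIS12 and CENPM to CENPI overlapped with DMSO there too. These ratios have no test and rest on Salmon's assignment of reads to transcripts.

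**Figure D4:**
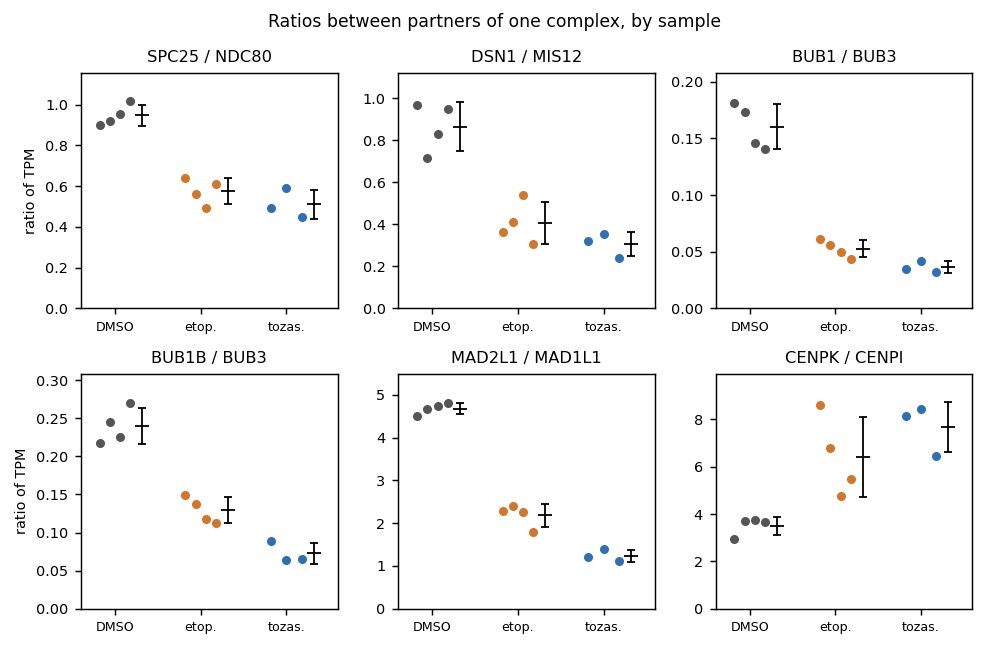
Ratio of TPM between 6 pairs of partners in every sample, with mean ± SD as a cross bar (n = 4, 4 and 3). MAD2L1 to MAD1L1 falls from 4.50 to 4.81 in DMSO to between 1.12 and 2.41 in the drug samples, and CENPK to CENPI rises from at most 3.73 to at least 4.76.

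The order of levels changed with them. Per length, BUB3 led in DMSO with 231 ± 25.2 TPM, ahead of CDC20 with 146 ± 9.68 and ZWINT with 109 ± 4.67. MAD2L1 (76.9 ± 2.70) and PLK1 (75.2 ± 4.33) followed and differed by less than their spread. At the low end CENPE had 8.51 ± 1.14 TPM and CENPC 5.90 ± 1.21. Under both drugs BUB3 stayed first, and CENPT moved from rank 17 in DMSO to rank 2. MIS12 went from rank 21 to 5 in etoposide and 3 in tozasertib, ZW10 from 29 to 10 and 8, and MAD1L1 from 32 to 14 and 9. SPC24 moved down, from rank 15 to 28 and 31.

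The next question was whether the 2 drugs left different levels. In tozasertib against etoposide, 23 of 36 members were called lower and 0 higher, where 5.45% of all genes were called lower and 5.67% higher. The median was -0.58, beside 0.01 over all genes. Of the members' values 33 of 36 were negative, against 8286 of 17039 over all genes. For 26 members no tozasertib sample reached the lowest etoposide sample, against 15.7% of all genes. Etoposide and tozasertib were used at different doses, so the values compare these 2 conditions and not the strength of the drugs. The count was 17 without tozasertib replicate 4, 26 without DMSO replicate 1, 25 without DMSO replicates 1 and 4, and 20 without both etoposide replicate 4 and tozasertib replicate 4. The count over all genes moved as well, from 929 called lower to 678, 1854, 1914 and 455 in the same order.

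Of the checkpoint genes and polo kinases, 6 of 9 were called, with log2 fold changes of -0.88 for PLK1 and BUB1B, -0.81 for CDC20, -0.80 for TTK, -0.70 for MAD2L1 and -0.57 for BUB1. Of the 14 outer kinetochore genes, 8 were called, led by SPC24 (-0.87), SPC25 (-0.83) and NDC80 (-0.79), with CENPF (-0.75), CENPE (-0.72), NUF2 (-0.67), KNL1 (-0.55) and ZWINT (-0.51). Of the 13 inner centromere genes, 9 were called: CENPM (-0.97), CENPI (-0.96), CENPA (-0.90), HJURP (-0.77), CENPK (-0.76), SGO1 (-0.64), CENPU (-0.60), SGO2 (-0.57) and CENPN (-0.49). CENPI had the smallest adjusted p, 4.5e-05, and was 1.94-fold lower.

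CENPM, the member with the lowest value, was sparse, at 13.3, 8.19, 9.67 and 6.89 CPM in DMSO, 2.59, 3.56, 2.59 and 1.64 CPM in etoposide and 1.37, 1.54 and 1.08 CPM in tozasertib. Its samples did not overlap between the drugs, but its adjusted p was 0.0415, and the call was lost on leaving out any 1 of 8 samples (all but DMSO replicates 1 and 4 and etoposide replicate 4; adjusted p from 0.0523 to 0.143). KNL1 (adjusted p = 0.0469) lost its call in 7 of these 11 settings, SPC24 (adjusted p = 0.0306) in 6, all of them drug samples, NUF2 in 3 (without etoposide replicate 2 or tozasertib replicates 2 or 4) and BUB1 and SPC25 in 1 (without tozasertib replicate 4).

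The 13 members that were not called included those with the smallest changes against DMSO. The 95% interval of the log2 difference was -0.22 to 0.03 for BUB3, -0.35 to 0.17 for MAD1L1, -0.13 to 0.18 for MIS12, -0.25 to 0.26 for PMF1, -0.26 to 0.10 for CENPC and -0.51 to 0.03 for CENPT. NSL1 had the highest value, at 0.25 (interval 0.08 to 0.42, adjusted p = 0.0587). Its samples stood at 15.9, 15.9, 15.4 and 16.0 CPM in DMSO, 10, 8.89, 8.46 and 8.85 CPM in etoposide and 10.5, 10.9 and 11.1 CPM in tozasertib. All tozasertib samples of NSL1 thus lay above all etoposide samples, and below DMSO. The others were ZW10 (-0.19), KNTC1 (-0.25), DSN1 (-0.30), CENPW (-0.44), PLK4 (-0.47) and CENPH (-0.50), with adjusted p from 0.0725 to 0.318.

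**Figure D5:**
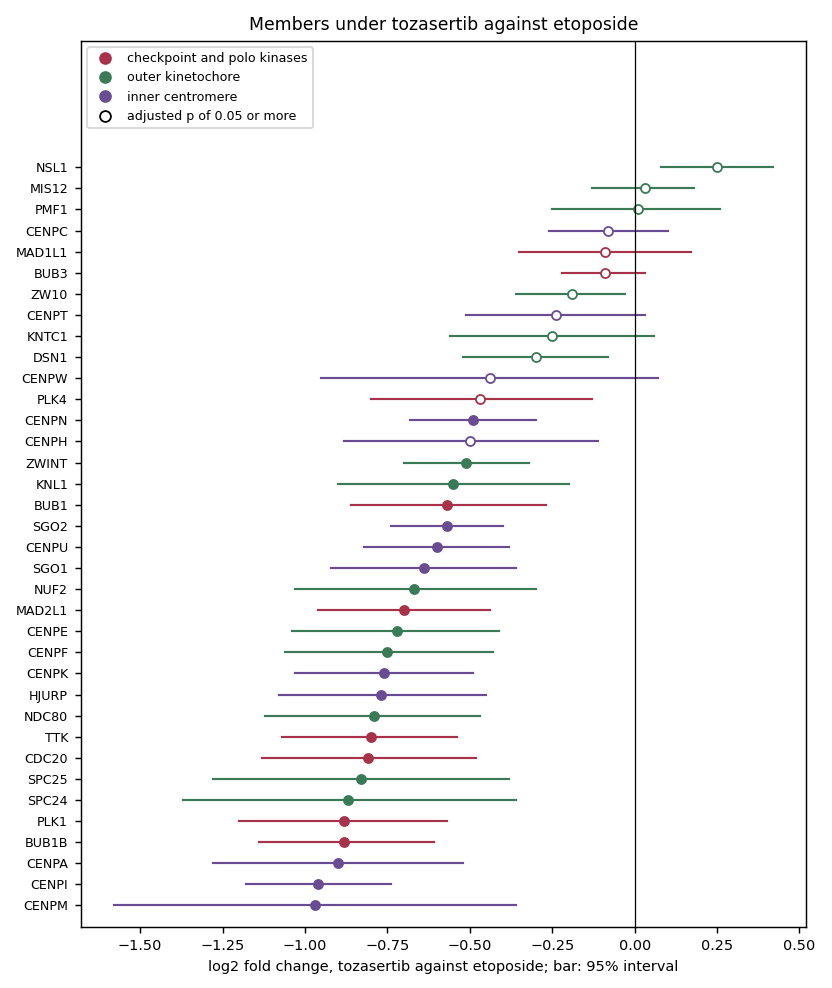
Log2 fold change of the 36 members in tozasertib against etoposide with 95% intervals, coloured by subgroup, where filled points have an adjusted p under 0.05. The 23 filled points run from -0.97 (CENPM) to -0.49 (CENPN), and NSL1, open, is the highest at 0.25.

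The other genes of the pathway were given as a list of 46 that held no member. Of these, 33 were called lower and 2 higher in etoposide, 33 lower and 2 higher in tozasertib, and 11 lower and 0 higher between the drugs. Of all genes, 30.7% were called lower and 27.7% higher in etoposide, 29.4% and 29.9% in tozasertib, and 5.45% and 5.67% between the drugs. All 8 further centromere subunits were lower under both drugs, with medians of -0.78 and -1.02. So were the 3 genes of CENP-A loading, among them OIP5 at -1.65 and -2.35. The Ska complex, which helps NDC80 hold microtubules, had SKA1 at -2.40 and -3.22, SKA2 at -1.69 and -1.62 and SKA3 at -2.05 and -2.64. TRIP13, which takes the checkpoint complex apart, changed by -1.05 and -1.42, while its adaptor MAD2L1BP was not called (-0.20 and -0.12).

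The anaphase-promoting complex is the target of the checkpoint. Of its 14 subunits 5 were called lower and 1 higher in etoposide and 5 lower and 0 higher in tozasertib, with medians of -0.11 and -0.12. These shares called lower were near the 30.7% and 29.4% of all genes, so the counts are no result about the complex. Among the factors that act with it, UBE2C, its E2 enzyme, changed by -2.25 and -2.98, the inhibitor FBXO5 by -1.85 and -2.23, and the second activator FZR1 by -0.56 and -0.79. Separase (ESPL1) and securin (PTTG1), which act at the step the checkpoint guards, were at -1.97 and -2.50 and at -2.42 and -2.71.

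The polo kinases split. PLK2, a stress-responsive kinase, had a mean of 151 ± 21 CPM in DMSO, 466 ± 22.5 in etoposide and 373 ± 6.62 in tozasertib, with log2 fold changes of 1.63 (adjusted p = 3.62e-09) and 1.31 (adjusted p = 4.47e-08). PLK3 was at 0.19 (adjusted p = 0.0565) and 0.33 (adjusted p = 0.00549). PLK1 and PLK4 were lower in both. Among the partners of PLK4 in centriole duplication, STIL was at -1.42 and -1.79, CEP152 at -1.58 and -1.70, and CEP192 at -0.18 and -0.45, the first not called.

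Other groups of cell cycle genes moved in the same direction. The 12 mitotic kinesins were all called lower under both drugs, with medians of -1.93 and -2.70, and so were the 10 origin licensing genes, at -1.54 and -2.03. Over all genes, the shares called lower were 30.7% in etoposide and 29.4% in tozasertib. Differences between these groups and the kinetochore genes were not tested.

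The promoter letters were also read by the size of the change. Of the members that fell by more than 1 on the log2 scale in etoposide, 24 had a window, and 16 of these held CHR letters. Of the 6 others with a window the number was 2, CENPC and ZW10. SPC24 and CENPI, with changes of -2.82 and -2.14, had no CHR letters in the window, which says only that these letters were not found there. The bases before the CENPI start used here, 101100958 to 101101057 on chromosome X, lie inside the gene, which begins at 101098188. Windows also lay inside the annotated gene for PLK1, NUF2, SPC25, CENPA and CENPN, which held CHR letters. The same was true of MAD1L1 and SGO2, which held none. The annotated starts of these genes were not searched.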

How the data were processed

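RNA-seq of 11 samples of SK-MEL-103 cells was analysed. The authors made strand-specific libraries from poly(A) RNA. Tools listed in the submitters' processing notes are DESeq2 1.40.2, R 4.4.2, Salmon 1.9.0 and cutadapt 4.7, while the study's methods name another aligner. The options and transcript release behind Salmon are likewise not given in the sources used. Per the file headers, the deposited tables hold estimated counts per transcript, which are not normalized, with effective lengths, and TPM, which the authors' run of Salmon scaled by length and total.

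Transcripts were joined to genes with GENCODE release 44 (99.8% matched), and estimated counts were summed and rounded. A two-sided quasi-likelihood test (edgeR 4.0.16, R 4.3.3) was applied in 1 fit over all 11 samples, after TMM scaling and filterByExpr, with Benjamini-Hochberg adjustment over 17039 genes. The fit was also run on simulated counts, in which few genes were changed, equally up and down. Far more genes were called in these data, so that run does not check the scaling here. Standard errors come from each fold change and its F value. No replicates agreed within sampling noise. Alternatives were DESeq2 1.42.0, other scalings and filters, protein-coding transcripts alone, a replicate block and leaving out samples.

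The members and the gene lists were chosen with earlier results of these data known. All 36 members were reported, with values per sample for those in the rule: the main checkpoint, outer and inner genes and the highest and lowest fold change of each subgroup and comparison. Results for some marker and neighbouring genes are not reported here.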

Additional observations from a re-analysis of the deposited data

Results flagged for a closer look

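The levels of the 36 members were searched for a sample far from the rest of its group by Dixon's ratio, in the DMSO and etoposide groups of 4, and chance marks about 1 in 20 groups. Of 72 groups 4 were marked, all in DMSO. DMSO replicate 1 was the highest for CENPH (ratio 0.924) and CENPW (0.857), 2 genes with short transcripts, and the lowest for SGO2 (0.835). DMSO replicate 3 was the lowest for NSL1 (0.833), where the group ran only from 15.4 to 16.0 CPM.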

How the results depend on the processing

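The calls against DMSO varied little: 35 members lower in etoposide and in tozasertib when any 1 sample was left out. Of 360 values for single members under the other alternatives, 357 kept direction and call in etoposide, 356 in tozasertib and 335 between the drugs. None of the values reversed with a call. The members' median in etoposide was -1.94 with length-scaled counts and -1.70 without etoposide replicate 4 and, in a setting chosen after seeing the data, without both replicates labelled 4 of the drugs (-1.70). In tozasertib it was -2.39 over protein-coding transcripts. Leaving out samples in turn gave medians of -1.86 to -1.70 in etoposide, -2.58 to -2.43 in tozasertib and -0.67 to -0.51 between the drugs. The 1 member called higher in tozasertib, CENPT, became 0 over protein-coding transcripts, without DMSO replicates 1 and 4 and without both replicates 4 of the drugs, and the count ran from 0 to 1 when samples were left out in turn. Between the drugs the count called higher was 1 (NSL1) with library size alone and without DMSO replicates 1 and 4, and ran from 0 to 1 leaving out single samples. The count called lower between the drugs ran from 17 (without tozasertib replicate 4) to 26 (without DMSO replicate 1), was 18 over protein-coding transcripts, 19 with length-scaled counts and 26 with DESeq2. The causes were not tested. Library size alone moved the median of all genes in tozasertib to 0.11. Of all genes, 929 were lower between the drugs, against 1767 with those 2 groups alone, 1914 without DMSO replicates 1 and 4, 1493 with DESeq2, 522 with length-scaled counts and 455 without both replicates 4 of the drugs. Deviations of same-numbered samples correlated at -0.097 to 0.23. Between etoposide and tozasertib the 3 same-numbered pairs were all positive (0.23, 0.091 and 0.12), while the others ran from -0.207 to 0.161 and tozasertib replicate 4 correlated best with etoposide replicate 3. The labels do not say what a number marks, and a replicate block left 23 members called lower between the drugs, with DSN1 gained (adjusted p = 0.044) and KNL1 lost (0.072). Depth limits members at a few CPM in tozasertib, such as CENPM (1.08 to 1.54) and SPC25 (1.22 to 2.29).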
